A study of Homo sapiens with 17 samples.

Results

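Sites of RNA polymerase pausing that lay 61 to 100 bp downstream of a transcript start of a coding gene were described in HEK293 cells. A site was a member when the nearest transcript start upstream on its own strand, among the transcripts of protein-coding genes in GENCODE v29 on GRCh38, was 61 to 100 bp away, on chromosomes 1 to 22 and X. The distance alone chose the members, and no pausing time was used. For 4879 rows (68.3%) a transcript annotated with the type protein_coding began at that start. For the others only transcripts of other types in a coding gene did, and some of those types can also carry coding sequence. They filled 7141 of the 204137 rows of the 4 deposited tables, at 5081 of 158141 distinct positions, and belonged to 3028 genes.

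The study used time-variant precision run-on sequencing, in which engaged polymerases of permeabilised cells add labelled nucleotides for a set time, and the 3′ ends of the RNAs mark where polymerases stood. HEK293 is an established line from human embryonic kidney, and the labels give no treatment for the libraries used. Run-on lasted 0.5, 2, 8 or 32 min in a buffer with sarkosyl, a detergent that removes many proteins from chromatin while engaged polymerases continue, or in a sarkosyl-free buffer, with 2 replicates of each. Each table gives one pausing time per site for 1 buffer and 1 replicate, fitted by the authors over the run-on times, in a unit of time not stated. A further sample labelled as a treatment was not analysed here. Where nothing says that replicates came from separate cultures, p-values measure only the spread between these tables, which may be technical.

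RNA polymerase II at most human coding genes stops soon after initiation, held by the factors DSIF and NELF, and enters productive elongation after the kinase P-TEFb acts. This promoter-proximal pause lies close to the start of the transcript, mostly upstream of the first nucleosome of the gene body. Counted from a start that is in use, the window from 61 to 100 bp would cover the downstream flank of that region. Whether the annotated starts are used in these cells was not tested, so members need not be promoter-proximal pauses.

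The sites below are among those that differed most between buffers, except that SPSB1 and TMX1 are among those that varied least. They are shown so that the sequence can be set beside the values given later. The RNA-like strand is shown with the base at the listed position in capitals. Sequences come from the GENCODE v29 transcripts on GRCh38, 5′ to 3′, and only sites with the whole stretch inside 1 exon could be read.
HSP90AB1 (chr6:44247143-44247167, plus strand): cggaaagcaagcCtacgttgctcac
INTS6L (chrX:135520714-135520738, plus strand): gcagcggcagtaGtggtggcagcag
RPL41 (chr12:56116691-56116715, plus strand): ccgtgtacaatcCatagacatctga
HNRNPA2B1 (chr7:26200653-26200677, minus strand): tcactacagcgcCaggacgagtccg
POLG2 (chr17:64496915-64496939, minus strand): ccataaggtctgCaggtgcctgttg
SRSF1 (chr17:58007142-58007166, minus strand): ttctcgagtccgCgcttttcgtcac
DPM1 (chr20:50958437-50958461, minus strand): tccacgacagaaCaaatattcggtg
SF3B3 (chr16:70523862-70523886, plus strand): gtggtggcttaaGttttgaagggag
SPSB1 (chr1:9292939-9292963, plus strand): caggctccaggcGccggcgccgggg
TMX1 (chr14:51240320-51240344, plus strand): cccctggcagtcCtggtgctgttgc

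The window held a larger share of the listed sites in both sarkosyl tables than in either sarkosyl-free table. Members were 2549 of the 46724 sites on chromosomes 1 to 22 and X in sarkosyl replicate 1 and 2073 of 45758 in replicate 2. The sarkosyl-free tables held 1570 of 64484 and 949 of 40566. Their share was 5.46% and 4.53% in the sarkosyl tables (mean 4.99 ± 0.65%, SD, n = 2). In the sarkosyl-free tables it was 2.43% and 2.34% (mean 2.39 ± 0.07%, SD, n = 2). A two-sided exact permutation test over the 4 tables returned p = 0.33, the smallest value it can reach with this number. The neighbouring windows had the same order of buffers, with 14.3% and 10.5% against 9.0% and 8.54% in the nearer window at 0 to 60 bp, and 5.86% and 5.80% against 3.71% and 3.47% in the farther window, beyond 100 and up to 300 bp. Minus-strand members on chromosome X numbered 0 and 0 in the sarkosyl tables and 16 and 12 in the sarkosyl-free tables, while the plus strand had 48, 38, 30 and 19. The sarkosyl tables list no minus-strand site of that chromosome at all, so its minus-strand genes were not measured with sarkosyl.

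For most members an inner annotated start was nearer than the outermost start of the gene. For 1560 of the 7141 rows (21.8%) the nearest start was the outermost start of the gene, and for 5581 (78.2%) it was an inner annotated start. Measured from the outermost start, 31.1% of rows lay at 61 to 100 bp, 29.97% beyond that and up to 300 bp, 16.4% beyond 300 and up to 1000 bp, and 20.9% farther away. The 5′ UTR held 58.7% of rows, coding sequence 20.7%, introns 14.3%, and exons of transcripts without coding sequence 5.92%. Each row took its first match over all transcripts of the gene, in the order 5′ UTR, coding sequence, 3′ UTR, other exon, intron. A 5′ UTR row may thus be coding or intronic in another transcript, and an intron row lay in no exon of the gene. The remaining 28 rows were in 3′ UTRs.

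Within the window the sites thinned out with distance. From 61 to 70 bp to 91 to 100 bp, the number of sites per bp went from 88.3 to 41.3 and from 67.5 to 38.2 in the sarkosyl tables, and from 57.1 to 26.2 and from 33.8 to 15.6 in the sarkosyl-free tables. The median position was 76, 77, 75.5 and 76 bp. In the sarkosyl tables, members farther from the start had longer median times. In replicate 1 the medians of the successive 10-bp bins were 1.39, 1.53, 1.67 and 1.81. In replicate 2 they were 1.21, 1.21, 1.27 and 1.33. The sarkosyl-free tables had no such order, with 1.81, 1.48, 1.90 and 1.74 in replicate 1 and 6.69, 6.92, 8.00 and 6.56 in replicate 2. These bins share a table, so the order is a description of each table and was not tested. At the edges the sarkosyl replicate 1 medians were 1.26 at 60 bp and 1.25 at 61 bp, and 3.65 at 100 bp (33 sites) and 2.03 at the next bp (46 sites).

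**Figure D1:**
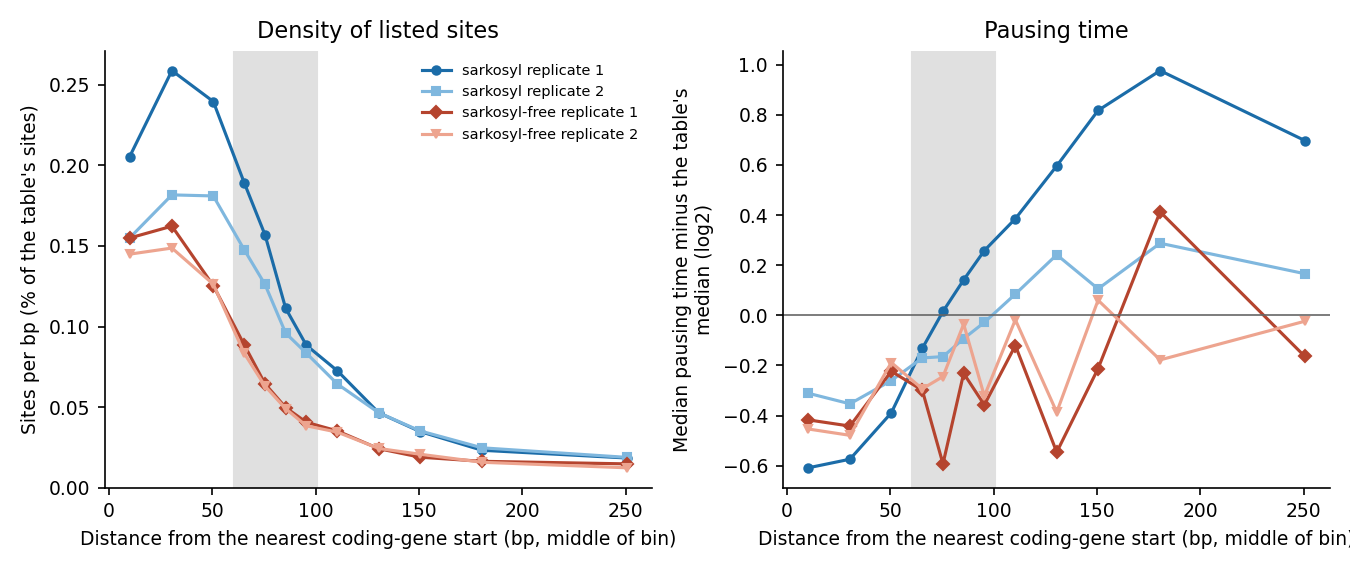
Sites per bp as a percentage of each table's sites on chromosomes 1 to 22 and X (left) and median log2 pausing time minus the table's median (right), against the distance from the nearest transcript start of a coding gene in bp, with the 61 to 100 bp window shaded and 1 line per table. All 4 densities fall through the window, and both sarkosyl lines climb through it on the right.

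Pausing times of members spanned a wide range in every table. The median was 1.54 in sarkosyl replicate 1 (quartiles 0.885 and 3.69) and 1.25 in replicate 2 (0.942 and 2.1). In the sarkosyl-free tables it was 1.77 (0.521 and 5.43) and 6.90 (1.47 and 20). Against all other sites of the same table on chromosomes 1 to 22 and X, the median log2 time of members differed by 0.02 and -0.12 with sarkosyl (mean -0.05 ± 0.10, SD, n = 2). It was lower by -0.34 and -0.26 without sarkosyl (mean -0.30 ± 0.06, SD, n = 2). The buffers differed by 0.25 on the log2 scale (p = 0.33, two-sided exact permutation test). The 0 to 60 bp sites lay lower in each table, at -0.64, -0.36, -0.43 and -0.40 against all other sites. Sites of the farther window had 0.68 and 0.17 in the sarkosyl tables and -0.11 and -0.08 in the others.

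These level differences moved with the choice of sites. The authors' own uncertainty was wide, since the ratio of the upper to the lower quartile of a member's fitted rate had medians of 2.68, 3.08, 3.62 and 2.33. Among the sites of each table with a quartile factor at or below the table's median, members differed from other sites by a mean of 0.051 with sarkosyl and 0.060 without it. With distances counted only from each gene's outermost start, the mean difference was -0.48 with sarkosyl and -0.25 without it, and the buffer difference turned to -0.23. In sarkosyl replicate 1, members 61 to 100 bp from the outermost start had a median of 1.155, and those beyond 100 and up to 300 bp from it 1.86. The same classes had 1.12 and 1.31 in replicate 2, 1.80 and 1.83 in sarkosyl-free replicate 1, and 5.87 and 7.35 in sarkosyl-free replicate 2. In each table the second of these classes had the longer median. Members still farther away did not continue that order: beyond 300 and up to 1000 bp the medians were 1.57, 1.25, 1.81 and 9.62, and beyond 1000 bp they were 1.72, 1.34, 1.499 and 6.92.

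**Figure D2:**
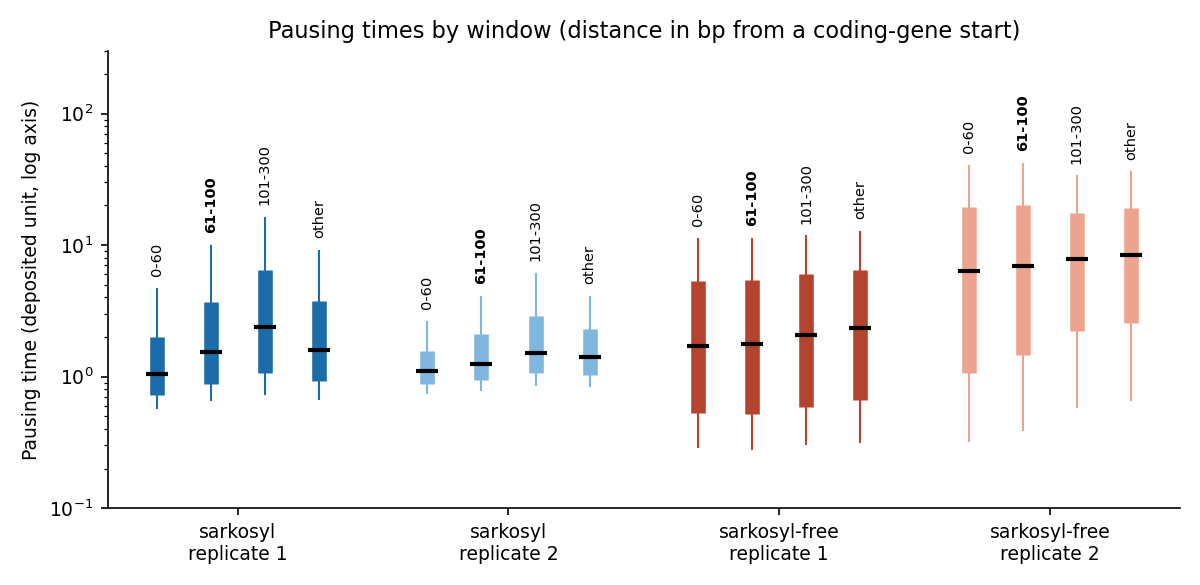
Pausing times (deposited unit, log axis) of sites in 3 windows of distance and of all other sites in each table; black bars are medians, boxes the quartiles and thin lines the 10th to 90th percentiles of sites. Boxes of neighbouring windows overlap in each table, and the sarkosyl-free boxes are taller than the sarkosyl boxes.

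Comparison within genes kept the gene fixed but not the start, so the sites compared may be measured from different annotated starts of a gene. In genes with a member and a site at 0 to 60 bp in the same table, the member's median log2 time was higher by 0.81 over 828 genes and by 0.36 over 670 genes with sarkosyl (mean 0.59 ± 0.32, SD, n = 2). Of these genes, 69.7% and 66.1% had the longer time in the 61 to 100 bp window. Without sarkosyl the difference was 0.03 over 540 genes and 0.49 over 266 genes (mean 0.26 ± 0.32, SD, n = 2), with 50.7% and 54.1% of genes longer. Against sites of the farther window in the same genes, the members differed by -0.76 over 506 genes and -0.27 over 448 genes with sarkosyl (mean -0.52 ± 0.35, SD, n = 2). Of those genes, 34.4% and 34.6% were longer in the members' window. Without sarkosyl the values were -0.19 over 321 genes and -0.32 over 159 genes (mean -0.25 ± 0.09, SD, n = 2), with 45.5% and 45.9% longer. In all 4 tables the median difference was above 0 against the nearer window and below 0 against the farther one, although with sarkosyl-free replicate 1 the first was close to 0. The contrasts rest on different sets of genes. With distances from outermost starts only, the mean difference from 0 to 60 bp was 0.37 with sarkosyl and 0.36 without it. From the farther window it was then -0.80 and -0.078. The buffers did not separate in either contrast (p = 0.67 for each, two-sided exact permutation test).

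**Figure D3:**
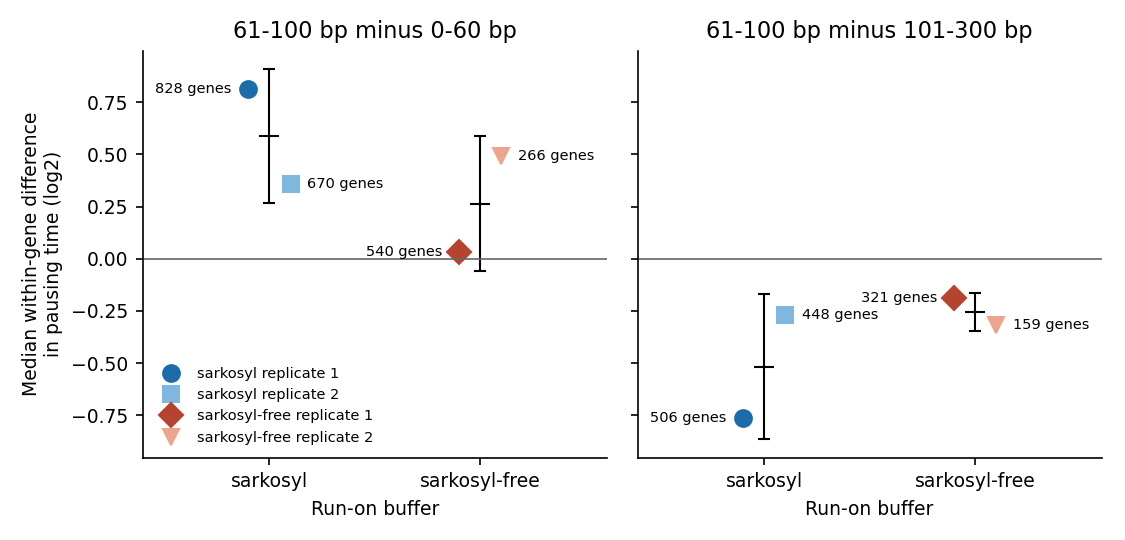
Median over genes of the difference in log2 pausing time between members and sites at 0 to 60 bp (left) or of the farther window (right) of the same gene, by run-on buffer; 1 point per table with its number of genes, and the mean and SD of 2 tables in black. All 4 points are above 0 on the left and below 0 on the right, and sarkosyl-free replicate 1 is close to 0 on the left.

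A gene usually had 1 member per table. Genes with a member numbered 1949, 1621, 1275 and 804, and 76.1%, 78.2%, 81.3% and 84.7% of them had a single one. In 57.5%, 58.7%, 57.6% and 66.9% of these genes no site at 0 to 60 bp was listed in the same table. The members of such genes were shorter than those of genes with a site at 0 to 60 bp, by log2 differences of -0.60, -0.16, -0.37 and -0.43. That sign was shared by all 4 tables.

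The base at the position was nearly always G or C. Bases could be read for 84.5% to 88.9% of members, those in exons. Of these, 97.97%, 95.6%, 98.97% and 98.5% had G or C on the RNA-like strand (mean 97.75 ± 1.49%, SD, n = 4 tables). Sites at 0 to 60 bp (98.05 ± 1.27%), in the farther window (96.5 ± 0.79%) and elsewhere in exons (96.1 ± 1.06%, all SD, n = 4) had shares within a few percentage points of these. The balance of the bases differed between buffers and, without sarkosyl, between replicates. C was the base of 70.8% and 66.6% of members in the sarkosyl tables against 51.3% and 23.3% in the sarkosyl-free tables. G was the base of 27.2% and 29.1% against 47.7% and 75.1%. The balance was not particular to the window. C was the base of 70.6%, 67.9%, 49.4% and 26.8% of sites at 0 to 60 bp, and of 69.1%, 67.3%, 49.9% and 18.0% in the farther window. The 24 flanking bases held 65.8%, 65.4%, 64.6% and 64.1% G and C. This richness was not particular to the window either, since sites at 0 to 60 bp had 66.6%, 65.4%, 65.4% and 64.7%. The means in the farther window were 62.3% for the sarkosyl tables and 58.8% for the others. Exonic sites outside the first 300 bp had 44.0% to 49.6%.

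Pausing times differed with the base in the sarkosyl-free tables. Members with C had medians of 1.44, 1.23, 1.21 and 2.75, and members with G had 1.44, 1.29, 2.65 and 8.77. The log2 difference C minus G was 0.0021 and -0.067 in the sarkosyl tables (mean -0.033 ± 0.05, SD, n = 2). In the sarkosyl-free tables it was -1.13 and -1.67 (mean -1.40 ± 0.38, SD, n = 2). The buffers did not overlap, with p = 0.33 in a two-sided exact permutation test. Sites at 0 to 60 bp had -0.10, -0.17, -0.69 and -1.19, and those of the farther window -0.33, -0.23, -0.39 and -1.67. Exonic sites elsewhere had -0.66, -0.14, -0.72 and -1.35.

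The base before the position carried a further difference. With A before G, the sarkosyl-free medians were 4.796 and 16.4 (21.1% and 26.8% of members), and with C before G they were 0.931 and 3.58 (17.1% and 35.02%). With sarkosyl, A before G was rare, at 2.46% and 2.91% of members, with medians of 1.10 and 0.973. The commonest pair with sarkosyl was C before C, at 37.2% and 33.2%, with medians of 1.24 and 1.18. A G 3 bases before the position was found in 55.3%, 49.2%, 51.8% and 54.1% of members. These members were shorter than the rest by log2 differences of -0.61, -0.07, -0.71 and -1.35. The sites at 0 to 60 bp had G there at a like frequency, from 48.3% to 54.5%. Their differences had the same sign, at -0.29, -0.0047, -0.27 and -1.25. So did those of the farther window, at -0.78, -0.0084, -0.37 and -0.75.

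Promoters of the members' genes were searched for short motifs. RefSeq promoters on GRCh38.p14, windows of 300 bases around a gene's start, matched 2427 of the 3028 genes. Searched on both strands, TATAAA was present in 5.93% of them against 11.95% of all 27305 promoters of the table. GGGCGG, a core of the Sp1 site, was present in 72.6% against 44.6%, and CCAAT in 39.3% against 35.7%. The 27305 promoters outnumber the 19864 coding genes of the annotation and were not limited to genes with a listed site. The contrasts with them are therefore not specific to the window. Promoters of genes with a site at 0 to 60 bp had 5.30%, 72.4% and 39.3%, so the shares were close to those of the neighbouring window. Many genes are in both sets. A match to these letters says nothing of a factor bound there.

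Most positions were listed in a single table. Of the 5081 positions, 3542 were in 1 table, 1140 in 2, 277 in 3 and 122 in all 4. Both sarkosyl tables held 944, which is 37.0% and 45.5% of their members, and both sarkosyl-free tables held 447 (28.5% and 47.1%). Over all sites the shares were 35.9% and 36.6% with sarkosyl, and 20.5% and 32.6% in the sarkosyl-free pair. Members recurred at shares above these in each table, by little in sarkosyl replicate 1. The neighbouring windows were not compared in this way, so the recurrence may not be particular to the members. Genes recurred more than positions, with 305 of the 3028 genes having a member in every table. At shared positions, Spearman's rho of the pausing times was 0.704 between the sarkosyl tables and 0.538 between the sarkosyl-free tables, across sites that are not independent replicates. Between buffers the coefficients over 475, 346, 260 and 231 positions were -0.07, 0.05, -0.17 and -0.13. Over all sites of the tables they were 0.686 and 0.473 within buffers, and 0.06, 0.09, 0.05 and 0.07 between buffers.

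**Figure D4:**
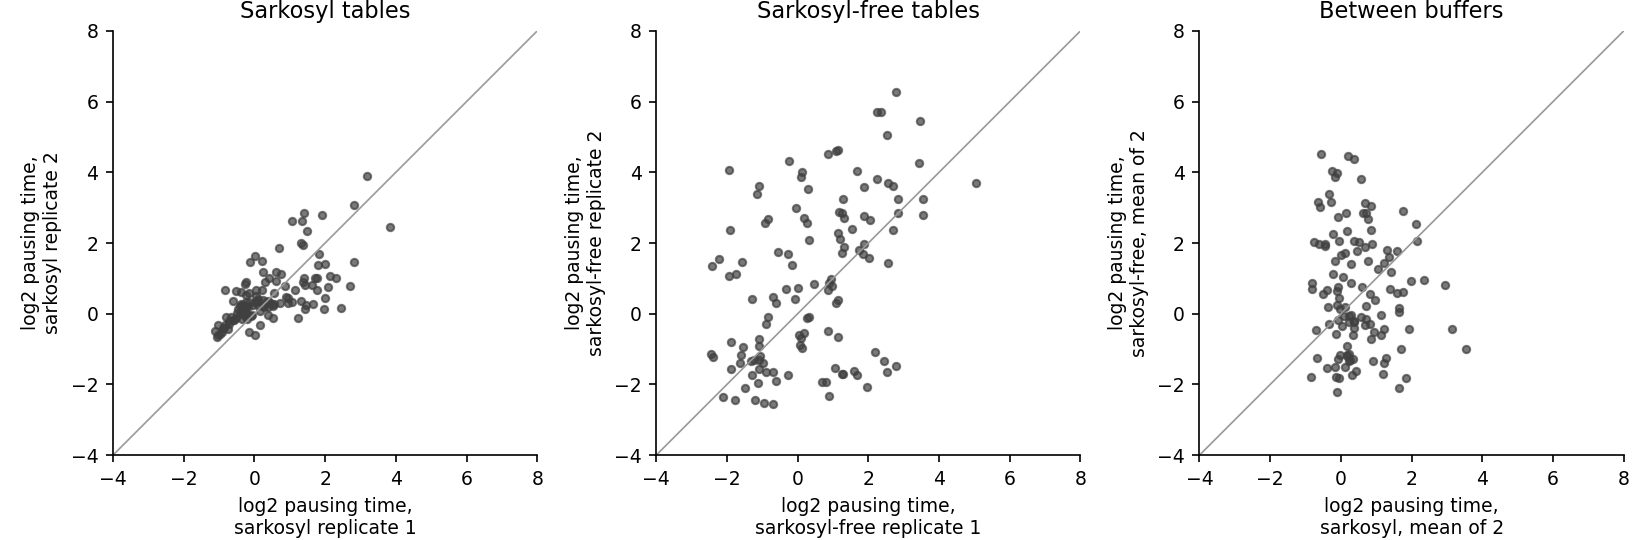
Log2 pausing time (deposited unit) of the 122 members listed in all 4 tables, 1 point per site, between the sarkosyl replicates (left), between the sarkosyl-free replicates (middle) and between the means of the buffers (right); grey lines mark equal times. Points follow the line closely on the left, spread widely in the middle and show no trend on the right.

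For the 122 members in all 4 tables, single sites were compared between buffers. Medians were 1.16 and 1.26 in the sarkosyl tables and 1.20 and 1.75 in the sarkosyl-free tables, and the times of the sarkosyl-free tables ranged from 0.172 to 76.9. limma with Benjamini-Hochberg adjustment, fitted over the 2967 sites shared by all tables after centring each table, called 0 of the 122 members, and 0.0% of all shared sites, at an adjusted p under 0.05. At an unadjusted p under 0.05 it called 33 members (27.0%) against 23.2% of all shared sites. Of these, 12 were longer with sarkosyl (9.84% against 12.0% of all) and 21 were shorter (17.2% against 11.2%). After centring, both sarkosyl tables lay above both sarkosyl-free tables at 41 members (33.6% against 31.6% of all) and below them at 35 (28.7% against 25.7%). The remaining 46 overlapped. The median centred log2 difference was 0.24 over members and 0.22 over all shared sites. Without sarkosyl-free replicate 1, limma called 1597 of the 2967 sites and 70 members, and without sarkosyl-free replicate 2 it called 660 and 34. The single sarkosyl-free table is then assumed to vary like the sarkosyl pair.

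Sites with shorter times in sarkosyl are given first. The 6 with the largest differences among sites whose buffers did not overlap were taken, so the separation is fixed by the choice and is a description. At the 5′ UTR site of HSP90AB1, the constitutive cytosolic HSP90 chaperone, 68 bp from a start, sarkosyl gave times of 0.562 and 0.806, and the sarkosyl-free buffer 6.94 and 76.9. At INTS6L, a paralogue of an Integrator subunit, 67 bp from a start, they were 0.778 and 0.908 against 5.13 and 52.6. At both genes the sarkosyl-free replicates also lay far from each other. The intronic site of NCAPD2 (12:6494162, plus strand), a condensin subunit, had 1.43 and 0.923 against 10.99 and 43.5. RPL41, a protein of the large ribosomal subunit, had 0.751 and 1.16 against 4.74 and 52.6 at its 5′ UTR site. The closest sarkosyl-free replicates of this set were those of HNRNPA2B1, an RNA-binding protein of nuclear RNA processing. Its site 81 bp from a start had 0.858 and 0.908 against 10.9 and 19.2, a centred log2 difference of -3.90 (SE 0.73; adjusted p = 0.155 in limma with Benjamini-Hochberg adjustment). POLG2, the accessory subunit of the mitochondrial DNA polymerase, had 1.42 and 1.20 against 33.3 and 12.99 in its coding sequence.

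Members with longer times in sarkosyl were chosen in the same way. SRSF1, a splicing factor of the SR family, had 9.17 and 14.9 with sarkosyl against 0.829 and 0.300 without it, at a 5′ UTR site 78 bp from a start. Its centred log2 difference was 4.69 (SE 0.87; adjusted p = 0.155 in limma with Benjamini-Hochberg adjustment). DPM1, the catalytic subunit of dolichol-phosphate mannose synthase, had 2.48 and 4.00 against 0.294 and 0.184. SF3B3, a subunit of the spliceosomal SF3b complex, had 2.101 and 6.13 against 0.192 and 0.426. Both SF3B3 replicates in each buffer lay apart by more than those of DPM1. AZIN1, an inhibitor of antizyme in polyamine control, had 14.3 and 5.52 against 0.261 and 2.11 at 70 bp. FBH1, a DNA helicase with an F-box, had 3.97 and 2.65 against 0.473 and 0.528 in an intron.

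Other members had like times in the 4 tables. The 5 with the smallest range of log2 time over the tables were in NFXL1, SPSB1, TMX1, MANBAL and ZFP62, with ranges from 0.49 to 0.78. At NFXL1 sarkosyl gave 3.47 and 2.58, and the sarkosyl-free buffer 3.61 and 3.25. At SPSB1, a SOCS-box adaptor protein, they were 0.845 and 1.145 against 1.25 and 0.946, at 71 bp from the outermost start of the gene. TMX1, a thioredoxin-related protein of the endoplasmic reticulum, had 1.24 and 1.87 against 1.83 and 1.59. Buffers overlapped at all 5 sites.

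**Figure D5:**
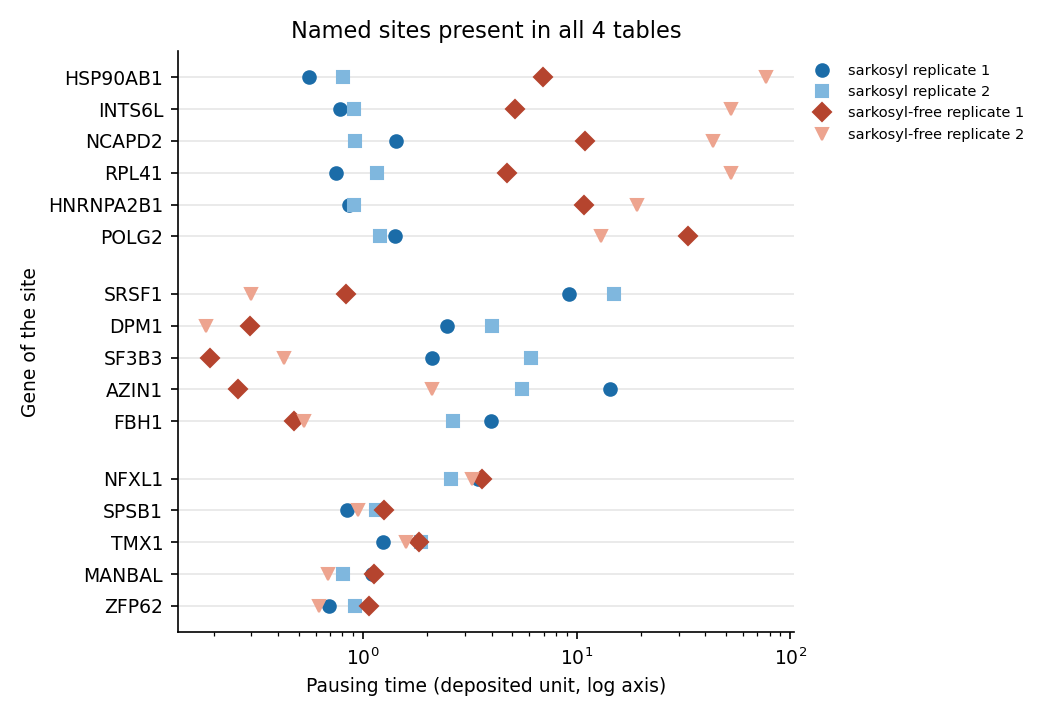
Pausing times (deposited unit, log axis) at 16 named sites present in all 4 tables, 1 row per gene and 1 symbol per table: the 6 with the shortest times in sarkosyl relative to the other buffer (top), 5 of the 6 with the longest (middle) and the 5 with the smallest range (bottom). In the top and middle groups the blue and red symbols do not mix, as the choice of sites requires.

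Several genes had many members. ADAMTS1, a secreted metalloproteinase, had the most, with 22 rows at 13 positions measured from 5 annotated starts. Its medians were 1.98 over 6 sites and 1.22 over 5 sites with sarkosyl, and 2.71 over 6 and 15.4 over 5 without it. In sarkosyl-free replicate 2 the ADAMTS1 sites ranged from 0.340 to 125. HNRNPA2B1 followed with 17 rows at 8 positions after a single start, with medians of 1.04, 1.05, 5.67 and 3.51. HNRNPL, another RNA-binding protein of this class, had 15 rows at 9 positions, with medians of 3.12 and 1.13 against 8.35 and 10.4. Its sarkosyl-free times ranged from 4.61 to 20.4, and its sarkosyl times from 0.887 to 6.29. No HNRNPL position was listed in all 4 tables, so these values are not over the same positions. The other genes in this group were JPT1, AMD1, ADM, PRRT2, EIF4A1, MBD3 and SERTAD1, with 12 to 15 rows each. PRRT2 had medians of 1.32 and 2.79 with sarkosyl, and 1.46 and 0.185 without it.

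Splicing factor genes were often among the members. Of the SR and hnRNP genes with any site in the first 300 bp, 59.4%, 58.1%, 61.3% and 44.8% had a member, against 32.0%, 33.3%, 23.2% and 21.2% of all coding genes with such a site. The list holds 33 genes, and 19, 18, 19 and 13 had a member. HNRNPH1 had medians of 1.002 and 0.898 with sarkosyl against 3.97 and 28.9 without it. The sites of a gene need not be the same positions in each table. HNRNPH1, HNRNPL, PTBP1, SRSF7, RPS27, RPS12, SUPT5H, HSPA8, ATF3, EEF2, HIST2H2AA3 and HIST2H2AA4 had no position listed in all 4 tables. PTBP1, a repressor of exon inclusion, had 0.753 and 2.99 against 11.5 and 20.4. SRSF7 had 9.71 and 1.65 against 2.15 and 10.5, so its buffers overlapped. Members of cytosolic ribosomal protein genes numbered 56, 64, 39 and 31 sites in 36, 43, 26 and 23 genes, which is 44.4%, 53.8%, 34.7% and 31.5% of the list's genes with a site in the first 300 bp. Their median log2 time exceeded the table's by 1.22 and 0.33 with sarkosyl and by 0.38 and 0.57 without it. RPS27 had 6.06 and 2.32 with sarkosyl and 0.409 and 0.397 without it, whereas RPS12 had 0.732 and 0.894 against 5.24 and 37.0. Ribosomal protein genes have processed pseudogenes, and how reads were placed between them is not given in the sources used here.

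Genes that act on the pause itself also had members. These were found in 6, 8, 7 and 6 of the 24, 22, 22 and 15 pause and elongation factor genes with a site in the first 300 bp (25%, 36.4%, 31.8% and 40%), on either side of the shares of all coding genes given above. SUPT5H, the large subunit of DSIF, had medians of 1.65 and 1.72 with sarkosyl over 4 and 3 sites, and 0.189 and 0.201 without it at 1 site each. LEO1, a subunit of the PAF1 complex, had 1.16 and 1.01 against 0.464 and 0.608. The sarkosyl-free medians of both genes, each from 1 site per table, were below the sarkosyl medians. Chaperone genes had members in 12, 9, 9 and 6 genes (44.4%, 39.1%, 33.3% and 33.3% of those with a site in the first 300 bp). HSPA8, the constitutive HSP70, had 5.81 and 2.16 against 0.419 and 8.13. Actins, tubulins and vimentin had members in 6 and 5 genes with sarkosyl and in 0 and 0 without it, of 12, 12, 10 and 9 genes with a site in the first 300 bp. The share over all coding genes was also lower without sarkosyl, as given above, and the contrast for these few genes was not tested. Immediate early transcription factor genes had members in 11, 9, 2 and 6 of 22, 22, 18 and 13 such genes. These shares of 50%, 40.9%, 11.1% and 46.2% lay on either side of those of all coding genes. ATF3, a stress-induced factor, had 7.09 and 3.22 against 0.651 and 0.337.

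Members in the remaining lists are given against the genes of each list with a site in the first 300 bp. Over all coding genes with such a site the shares were 32.0%, 33.3%, 23.2% and 21.2%, and no list was tested against them. Replication-dependent histone genes had members in 13, 25, 10 and 10 of 50, 52, 49 and 41 such genes, with medians of 3.27, 1.16, 3.77 and 6.80. HIST2H2AA3 and HIST2H2AA4 are near-identical copies, and their times, up to 143 and 83.3, could not be assigned with certainty to either. Proteasome genes had members in 9, 6, 4 and 3 of 30, 25, 24 and 14 genes. Mitochondrial ribosomal protein genes had them in 15, 14, 10 and 4 of 52, 37, 43 and 30, and translation factor genes in 9, 11, 7 and 3 of 29, 26, 27 and 22. EEF2, the elongation factor of translocation, had 1.66 and 1.37 against 3.89 and 125, the last at 1 site. Zinc finger ZNF genes had members in 77, 60, 45 and 21, or 34.4%, 32.1%, 22.4% and 14.6% of those with a site in the first 300 bp.

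Extreme times were scattered over unrelated genes. The shortest member times were 0.427 in ALG2, a mannosyltransferase of N-glycan assembly, in sarkosyl replicate 1, and 0.576 in STMN1, a microtubule regulator, in replicate 2. Without sarkosyl they were 0.169 in ZDHHC9, a palmitoyltransferase, and 0.172 in PRRT2. The longest were 35.7 in NOLC1, a nucleolar protein, in sarkosyl replicate 2 and 125 in PSMD4, a ubiquitin receptor of the proteasome, in sarkosyl-free replicate 1. Elsewhere 2 members tied at 143 and 3 at 167, since the deposited rates have few decimals. ALG2's rate quartiles were 1.70 and 3.21, closer together by ratio than the median ratio of 2.68 for members in sarkosyl replicate 1.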

How the data were processed

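Per the submitters' processing notes, reads were handled with cutadapt 1.14, HISAT2 2.1.0, SAMtools and bedtools on hg38. The site calling, the model, its prior and the unit of time are not given in the sources used here. Per the file headers, the deposited tables give a rate with quartiles and a pausing time; in 0 of 204137 rows did the deposited pausing time depart from the reciprocal of the median rate by more than a relative 1e-06. The tables hold no reads, so depth is unknown. Tables were assigned to the 16 libraries by buffer and replicate in their names. The number of value columns not mapped to a group was 0.

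Distance is the difference of position and start along the strand. Positions count from 1: G or C was most frequent at the listed base itself on both strands of all 4 tables. Times were analysed as log2 in Python 3.11.15 (numpy 2.4.6, pandas 2.3.3, matplotlib 3.10.9). The table was the unit of replication, with 2 per buffer. limma 3.58.1 in R 4.3.3 was fitted on log2 times centred on each table's median over the shared sites, with no replicate block, and tested on simulated data.

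Named sites were the 6 largest differences in each direction among members whose buffers did not overlap, the 5 smallest ranges, untied extremes, the 10 genes with most rows, and genes of fixed lists with members in every table, of which some are printed. A site chosen by this rule is not reported here. Sequence is shown for the first and second of these groups where it could be read, and none for chromosome 8. The members and lists were chosen with earlier results of these data known. Alternatives covered the starts, the window, the comparison sites, the summary, certainty filters, scaling in limma and leaving out each table. Those restricted to 1 base, to 5′ UTRs or using starts of all gene types were added after seeing the data.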

Additional observations from a re-analysis of the deposited data

Results flagged for a closer look

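Members with A before G at the position lay below the median of all members with sarkosyl, by log2 values of -0.42 and -0.35, and above it without sarkosyl, by 1.43 and 1.30. The difference between the buffers was -1.75. Members with C before G had 0.02 and 0.15 in the sarkosyl tables and -0.93 and -0.90 in the sarkosyl-free tables, a difference of 0.99. Members with G before C had 0.27 and 0.04 against -0.34 and -0.72, a difference of 0.68. Each was singled out because both tables of one buffer moved one way and both of the other the opposite way. The differences between buffers were not tested. Those of A before G and C before G were not particular to the members. At 0 to 60 bp, A before G lay at -0.28 and -0.13 in the sarkosyl tables and at 1.20 and 1.31 in the sarkosyl-free tables. C before G had 0.12, 0.19, -0.70 and -1.28 there, and it kept these signs in the farther window and at exonic sites elsewhere. G before C had 0.17, -0.0055, 0.11 and -0.31 at 0 to 60 bp. Its sarkosyl-free tables had opposite signs there, in the farther window and at exonic sites elsewhere, unlike in the members. In the sarkosyl-free tables A before G also lay above the median in the farther window, by 0.99 and 0.53, and at exonic sites elsewhere, by 0.66 and 0.29. Its sarkosyl values were -0.0078 and -0.19 in the farther window. At exonic sites elsewhere they were 0.64 and -0.08, so the buffers were not opposite there.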

How the results depend on the processing

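Of 113 recomputed values of 11 results, 81 kept their direction and side of the threshold or moved by less than the spread of the tables. The members' mean log2 difference from other sites was -0.05 with sarkosyl and -0.30 without it, and the buffer difference was 0.25. Counting from outermost starts only gave -0.48 with sarkosyl, a buffer difference of -0.23, a within-gene difference from the farther window of -0.078 without sarkosyl, and a sarkosyl share of 3.71%. Transcripts tagged basic gave -0.23 with sarkosyl and a sarkosyl-free share of 2.56%. Positions counted from 0 gave a within-gene difference from the farther window of -0.39 without sarkosyl, and 63.0% of members with G or C. A window of 51 to 110 bp raised the shares to 7.69% and 3.88% by its length. The more certain sites gave 0.051 with sarkosyl, 0.060 without it and a buffer difference of -0.0086. Sites in both tables of the buffer gave 0.025 with sarkosyl. Sites in all 4 tables gave 0.025 without sarkosyl and a buffer difference of -0.10. Against the rest of the first 300 bp the differences were 0.18 and -0.0056, and members in a 5′ UTR gave -0.18 and -0.43. Sites with C gave 0.0061 and -0.55. Without sarkosyl the difference was -0.36 with 1 value per gene, -0.42 against other sites in coding genes, -0.24 without extremes and -0.18 for sites with G. The causes were not tested.

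Leaving out each table gave the following ranges. Differences from other sites ranged from -0.12 to 0.022 with sarkosyl and from -0.34 to -0.26 without it, and the buffer difference from 0.18 to 0.32. Within genes the range was 0.36 to 0.81 and 0.03 to 0.49 against 0 to 60 bp, and -0.76 to -0.27 and -0.32 to -0.19 against the farther window. The shares ranged from 4.53% to 5.46% and from 2.34% to 2.43%, and G or C from 97.3% to 98.5%. limma's 0 calls among 2967 sites became 0 to 1597, with the most when sarkosyl-free replicate 1 was left out. Quantile normalization gave 158 calls and normal scores of ranks 231. With a replicate block it gave 161 calls, 13 of them members. The labels do not say that replicate numbers are shared between buffers. The differences between replicates had a correlation between buffers of 0.013 over the shared sites and -0.16 over the members among them. Such a value cannot tell whether replicates of like number shared a culture or a batch. The smallest p of the exact tests was 0.33. The tables give no depth, and the time of a site cannot be weighed by its reads.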
